A study of Mus musculus with 16 samples.

Results

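The epididymal adipose tissue of vehicle-treated pups was compared between UN-RG-Veh, pups that were undernourished *in utero* and then grew rapidly after birth, and NN-Veh, pups of normally nourished dams. The comparison took all 4 arrays whose titles name the undernourished vehicle group (replicates 9 to 12). It also took all 4 that name the normally nourished vehicle group (replicates 1 to 4), so 8 of the 16 arrays of the series. It covered 22206 transcript clusters, the units of the array, of which 19572 carried 1 gene symbol. All pups were C57BL/6 males, and the dams were C57Bl/6 NCrSlc by the study's methods. NN dams ate regular chow *ad libitum* and nursed litters of 8, whereas UN dams received 60% of that energy in the second part of pregnancy and nursed litters of 4, which makes the pups grow fast before weaning. Undernourishment and rapid growth were thus always combined, and no group here had only 1 of them, so that their parts cannot be told apart. From 9 wks all pups ate a high-fat diet, and from 11 to 16.5 wks they received the vehicle by mouth. In the study's full vehicle groups, UN-RG pups then had significantly higher body weight and epididymal fat weight than NN pups. Early nutrition and the amount of fat at sampling thus differed together, and their parts cannot be told apart here either. The other 8 arrays held pups of the same 2 nutrition groups given tauroursodeoxycholic acid (TU), a bile acid conjugate used as a chemical chaperone, over the same weeks. Each array held the RNA of 1 pup. The litters of the arrayed pups were not known, so that p-values measure the spread between these pups only.

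Epididymal fat is a visceral depot of white adipocytes, in which a fibroblast-like stroma, blood vessels, macrophages and lymphocytes lie between the fat cells, under a covering sheet of mesothelium. In a long high-fat diet the adipocytes enlarge, resident macrophages are joined by cells recruited from blood, and lymphocytes that release interferon-γ raise antigen presentation. Adipocytes also make fatty acids from glucose, a pathway that insulin raises and fat in the diet lowers. In bulk tissue, fewer cells of a type and less RNA per cell cannot be told apart, which holds for every value here.

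The 8 arrays carried the markers of fat. *Fabp4*, the fatty acid binding protein of adipocytes, lay at log2 intensities of 18.73 to 18.96 in NN-Veh and 18.77 to 18.91 in UN-RG-Veh, and *Adipoq*, the hormone adiponectin, differed by −0.001 (SE 0.104). The array medians were 7.02 to 7.16 and those of the antigenomic controls, probes that match no mouse transcript, 6.27 to 6.83, and arrays of a group correlated at 0.9773 to 0.9952. NN-Veh replicate 2 and UN-RG-Veh replicate 12 stood apart on the first principal component, with 48.4% of the variance, and were the vehicle arrays with transcripts of motile cilia, which fat lacks. The mean of 21 cilia genes was 8.62 and 7.39 on these arrays and 5.65 to 5.98 on the other 6. Of 18 genes of testis and germ cells, 14 lay at or below the median antigenomic control, and their mean was 7.52 in NN-Veh replicate 3 and 5.42 to 6.01 on the other 7 arrays. The mean of 19 markers of mesothelium was 8.22 to 9.20 in NN-Veh and 7.44 to 8.56 in UN-RG-Veh. The part of these tissues in the results was not tested, and values without the arrays with cilia are given beside the main counts, medians and calls that they move.

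The thresholds of the study, a 1.3-fold change with an unadjusted p below 0.05, were passed by 988 clusters (4.45% of those tested), of which 547 lay higher in UN-RG-Veh (2.46%) and 441 lower (1.99%). The groups did not overlap for 547 clusters that were higher (2.46%) and 426 that were lower (1.92%), 4.38% together. Below, a gene that "rose" or "fell" in UN-RG-Veh passed these thresholds, and differences are given on the log2 scale as UN-RG-Veh minus NN-Veh. Adjusted over all clusters, 2 passed 0.05 (0.00901%), *Casp1* and *Lyve1*, 4 were under 0.1, and an unadjusted p under 0.05 was reached by 1366 (6.15%). Where no cluster differs, a share of about 0.05 would be expected to reach that unadjusted p. With 4 arrays in each group, some clusters also separate without overlap by chance. Many of the calls at the study's thresholds can therefore be due to chance. Without UN-RG-Veh replicate 9, 714 were higher, 760 were lower and 9 passed the adjusted p. With each array centred on its median, 651 were higher and 332 lower. The median difference of all clusters was 0.01. The antigenomic controls had a median of 6.59 over the 8 arrays. For *Hpx*, *Mstn*, *Themis*, *Elovl3*, *Ifng*, *Zbp1*, *Itgad*, *Fcgr4*, *Chil4*, *Il2rb*, *Klrc1*, *Ncr1*, *Nkg7*, *Mmp3*, *Pappa*, *Ptgs2* and *Wnt11* the mean of at least 1 group lay below it, so that the size of these differences rests on a level not above background. Of the clusters past the thresholds, 859 carried a gene symbol, 677 lay above the median antigenomic control, and few differed much, 35 being higher and 30 lower by 1 or more. The lists of genes described below are to be read against the shares of all clusters, 2.46% higher and 1.99% lower. Genes of the study's own tables, *Saa3*, *Ubd*, *S100a8*, *Hpx*, *Casp1*, *Agt*, *Ptgs2*, *Mstn* and *Cck* among them, were picked by the study on these same arrays, and their direction is not independent evidence. In the study's quantitative RT-PCR, *Casp1* and *Ptgs2* did not differ significantly between UN-RG-Veh and NN-Veh. There *Saa3*, *Ubd*, *S100a8* and *Hpx* were significantly higher in UN-RG-Veh and *Agt* was significantly lower.

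**Figure D1:**
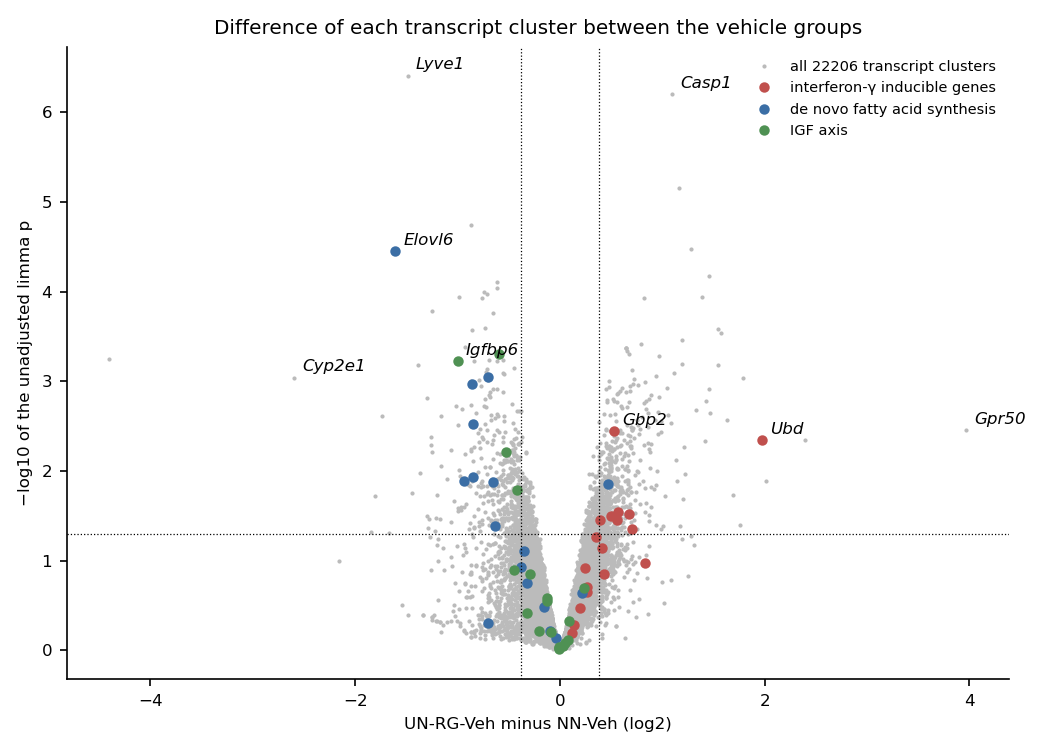
Each point is 1 transcript cluster, with the log2 difference UN-RG-Veh minus NN-Veh on the x axis, −log10 of the unadjusted limma p on the y axis and dotted lines at the study's thresholds. *Lyve1* at −1.49 and *Casp1* at 1.10 lie highest, interferon-γ inducible genes lie right of 0, and most genes of fatty acid synthesis lie left of it.

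The stretch before the start of 3 genes is shown because interferons act through a known promoter sequence, the interferon-stimulated response element. *Casp1* was taken for its adjusted p. *Gbp2* and *Irgm2* were taken from the interferon-γ inducible and immunoproteasome genes that rose because they hold a match to this element. A match in *Gbp2* and *Irgm2* was thus fixed by the choice. Capitals mark each match to that element, searched as GAAA, then any 2 bases, then GAAA again, on either strand, in the 100 bases printed, from RefSeq on GRCm38.p6. The *Casp1* stretch is chr9:5298417-5298516 on the + strand, bases 100 to 1 before the start, and holds 0 matches. The *Gbp2* stretch is chr3:142620559-142620658 on the + strand, with 1 match on the opposite strand that begins 59 bases before the start. The *Irgm2* stretch is chr11:58214868-58214967 on the + strand, with 1 match on the same strand that begins 64 bases before the start.
Casp1: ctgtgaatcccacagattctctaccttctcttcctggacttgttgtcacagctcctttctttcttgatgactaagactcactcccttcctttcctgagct
Gbp2: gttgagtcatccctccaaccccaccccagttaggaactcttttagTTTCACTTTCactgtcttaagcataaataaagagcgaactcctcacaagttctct
Irgm2: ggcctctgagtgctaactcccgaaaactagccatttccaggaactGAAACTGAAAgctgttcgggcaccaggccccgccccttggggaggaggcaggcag
The motif was searched in the 250 bases before the start. It was in 2.98% of 32851 windows of all annotated promoters and in 3.47% of the 15691 genes of the array that had a window. Of 364 genes that rose and had a window, 25 (6.87%) held it, and of 297 that fell, 4 (1.35%). It was in 9 of 13 interferon-γ inducible genes (69.2%), 7 of 17 type I interferon genes (41.2%) and 1 of 11 of the immunoproteasome and peptide loading (9.09%). It was in 0 of the windows of *Ubd*, *Psmb8*, *Psmb9*, *Tapbp* and *Cxcl9*, genes of these lists that rose. A match is a run of letters and not a measured binding site. The *Lyve1* window was not analysed here.

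*Casp1*, which cuts the precursors of interleukin-1β and interleukin-18 in the inflammasome, stood at 11.54, 11.28, 11.47 and 11.74 in NN-Veh replicates 1 to 4 and at 12.71, 12.48, 12.57 and 12.65 in UN-RG-Veh replicates 9 to 12. Every UN-RG-Veh pup was above every NN-Veh pup, and the spread within each group was smaller than the gap between the groups. The difference was 1.10 (SE 0.14, 2.14-fold, adjusted p = 0.00691 by limma), whereas the study's quantitative RT-PCR found no significant change of *Casp1*. *Lyve1*, which binds hyaluronan on lymphatic endothelium and on macrophages that live in the tissue, stood at 12.68, 12.94, 12.73 and 12.73 in NN-Veh and at 11.23, 11.12, 11.57 and 11.21 in UN-RG-Veh. The groups lay far apart, with replicate 11 the nearest to NN-Veh. The difference was −1.49 (SE 0.18, 2.81-fold lower, the same adjusted p). With each vehicle array left out in turn, the adjusted p of *Casp1* stayed at 0.0175 to 0.0455 and that of *Lyve1* at 0.0132 to 0.0455. Without the arrays with cilia the differences were 1.0 and −1.41, and both adjusted p were 0.185. In a fit of the 8 vehicle arrays alone the adjusted p were 0.0814 for *Casp1* and 0.0132 for *Lyve1*, and by the methods' t-test, a test of each cluster alone, 0.45 and 0.274 after Benjamini-Hochberg adjustment. Of 20 genes of inflammasomes and caspases 4 rose (median 0.23), and *Casp1* was the 1 left without NN-Veh replicate 2 or UN-RG-Veh replicate 11, while 6 rose without NN-Veh replicate 1. Without the arrays with cilia 2 rose and the median was 0.12. *Lyve1* is in the lists of lymphatic endothelium and of resident macrophages. Of 9 lymphatic markers 8 lay below 0 (median −0.35), and *Lyve1* alone fell (2 fell without UN-RG-Veh replicates 10, 11 or 12, or without the arrays with cilia). The mean of that list was 8.46, 9.61, 8.41 and 8.89 in NN-Veh and 7.59, 8.18, 8.19 and 9.20 in UN-RG-Veh, with overlap through UN-RG-Veh replicate 12. The part of lymphatic vessels in the difference of *Lyve1* was not tested.

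Some of the genes that rose most had other roles than the inflammatory genes below, of which *Saa3*, *Ubd* and *S100a8* also had large rises. The 15 largest rises and the 15 largest falls were picked among clusters without overlap. The separation of genes named by that rule was thus fixed by the choice. *Gpr50*, an orphan receptor related to the melatonin receptors, stood at 8.69, 7.30, 9.07 and 9.66 in NN-Veh and at 13.36, 12.51, 10.93 and 13.79 in UN-RG-Veh. The groups did not overlap, but the pups of each group spread over more than 2 units. The difference was 3.97 (SE 1.16, 15.6-fold, adjusted p = 0.517). *Cdkl4*, a kinase of the cyclin-dependent kinase-like family, was at 8.62 to 9.59 in NN-Veh and 10.10 to 12.09 in UN-RG-Veh, a difference of 2.01 (SE 0.72). Genes best known from muscle rose as well. *Pvalb*, the calcium buffer parvalbumin, stood at 7.05, 5.95, 7.14 and 6.79 in NN-Veh and at 8.20, 8.23, 8.06 and 7.98 in UN-RG-Veh. The UN-RG-Veh pups were nearly equal and all above NN-Veh, by 1.38 (SE 0.27, adjusted p = 0.176). *Trdn*, triadin of the calcium release complex, differed by 1.46 (SE 0.37) and *Mstn*, myostatin, which restrains muscle growth, by 1.54 (SE 0.37), neither with overlap. Of 17 skeletal muscle genes, *Pvalb* alone passed the thresholds, with a list median of −0.05, and the mean of the list was 6.06 to 6.26 in NN-Veh and 6.09 to 6.44 in UN-RG-Veh.

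*Themis*, a signaling protein of developing T cells, had after *Casp1* the smallest adjusted p of the rises with a symbol. It stood at 6.62, 6.34, 6.26 and 6.40 in NN-Veh and at 7.93, 7.18, 7.40 and 8.23 in UN-RG-Veh. The pups did not overlap, and the difference was 1.28 (SE 0.23, adjusted p = 0.131). *Tfr2*, the second transferrin receptor, rose by 1.43 (SE 0.38), *Cck*, the hormone cholecystokinin, by 1.63 (SE 0.46), and *Serpina3f*, a serine protease inhibitor, by 0.82 (SE 0.16, adjusted p = 0.176). *Epor*, the erythropoietin receptor, stood at 6.62 to 6.93 in NN-Veh and 7.25 to 8.02 in UN-RG-Veh, a difference of 0.79 (SE 0.18). *Serpina3f* and *Epor* were chosen after their values were seen. *Elovl3*, an elongase best known from brown fat, stood at 7.24 in UN-RG-Veh replicate 12 against 4.29 to 5.05 in the other UN-RG-Veh pups and 3.74 to 4.29 in NN-Veh. Its difference of 1.20 was 0.53 without that array and did not pass.

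The deepest falls were spread over several functions. *Rnase2a*, an eosinophil-type ribonuclease, stood at 10.67, 14.68, 13.16 and 12.06 in NN-Veh and at 11.32, 8.88, 7.66 and 5.10 in UN-RG-Veh. The groups overlapped, since UN-RG-Veh replicate 9 was above NN-Veh replicate 1, and the pups of each group were widely spread. The difference was −4.40 (SE 1.03, adjusted p = 0.36). *Tnfaip6*, a hyaluronan-binding protein of inflamed tissue, also overlapped and was at −1.74 (SE 0.49). Both were chosen after their values were seen. *Cyp2e1*, a cytochrome P450 that oxidizes ethanol and ketones, stood at 15.58, 15.62, 15.10 and 14.42 in NN-Veh and at 12.29, 11.54, 13.85 and 12.64 in UN-RG-Veh. The groups did not overlap, with a gap of less than 1 between NN-Veh replicate 4 and UN-RG-Veh replicate 11, and the difference was −2.60 (SE 0.64, 6.05-fold lower, adjusted p = 0.391). *Vcan*, the matrix proteoglycan versican, stood at 11.21, 10.38, 10.77 and 10.70 against 9.21, 9.70, 9.97 and 9.16, lower in every UN-RG-Veh pup by −1.25 (SE 0.26, adjusted p = 0.224). *Thbd*, thrombomodulin of endothelium, was at −1.17 (SE 0.39), and *Dtna*, α-dystrobrevin, at −0.99 (SE 0.19, adjusted p = 0.176).

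**Figure D2:**
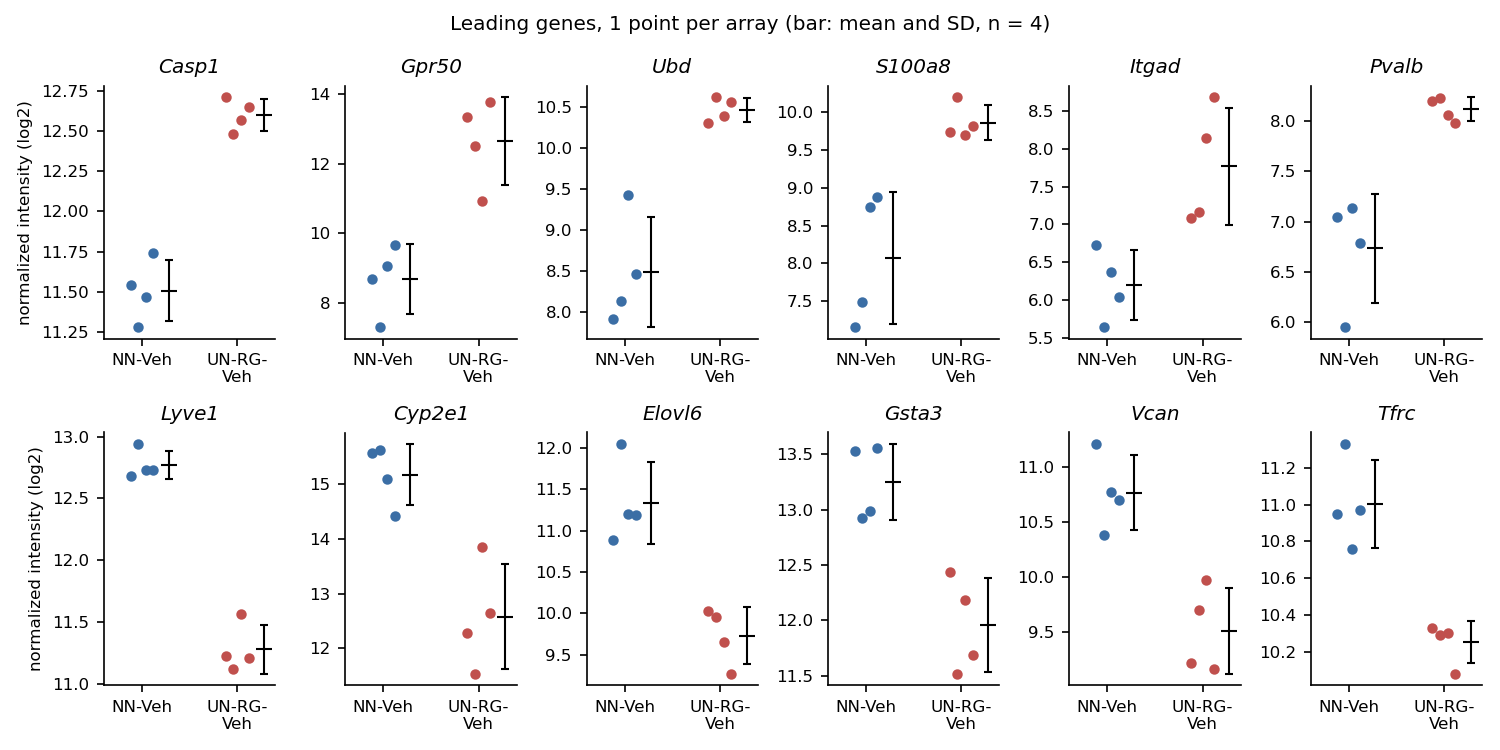
Log2 normalized intensity of 12 genes that rose or fell, with 1 point per array for NN-Veh and UN-RG-Veh and a bar for the mean and SD (n = 4); the y axes differ between panels and do not start at 0. In none of the 12 do the groups overlap, which was fixed by the choice for those named among the largest rises and falls without overlap. The points of *Casp1* and *Lyve1* lie close together within each group, and those of *Gpr50* are widely spread.

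Smaller falls with little spread gave some of the lowest adjusted p. *Abi3bp*, a matrix protein that restrains growth of mesenchymal cells, stood at 11.81, 11.84, 12.13 and 11.83 in NN-Veh and at 11.26, 10.74, 11.15 and 10.99 in UN-RG-Veh, a difference of −0.87 (SE 0.14, adjusted p = 0.0992). *Bnc2*, a zinc finger protein of stromal cells, was at −0.71 (SE 0.14), *Atp10a*, a phospholipid flippase, at −0.62 (SE 0.12), and *Erc1*, a scaffold of vesicle release, at −0.61 (SE 0.12), each with an adjusted p of 0.176 and without overlap. These 4 were chosen after their values were seen. *Tgfb1i1*, a focal adhesion protein of smooth muscle and stroma, fell by 0.93 (SE 0.21), and *Morc4*, a zinc finger protein, by 1.01 (SE 0.27).

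Transcripts of fatty acid synthesis were in part lower in UN-RG-Veh. Of 18 genes of the pathway, 8 fell, 1 rose and 9 did not pass, with a median difference of −0.51. With each array left out, 6 (without NN-Veh replicate 2 or UN-RG-Veh replicate 11) to 9 fell, and without the arrays with cilia 6 fell and the median was −0.31. The first step, acetyl-CoA carboxylase, is made by *Acaca* in fat. *Acaca* stood at 12.28, 12.47, 12.05 and 12.54 in NN-Veh and at 11.44, 11.63, 11.58 and 11.28 in UN-RG-Veh, without overlap, a difference of −0.85 (SE 0.24, adjusted p = 0.497). *Fasn*, fatty acid synthase, stood at 15.56, 16.04, 15.58 and 15.87 against 14.83, 15.30, 15.38 and 14.93, lower by −0.65 (SE 0.23). *Elovl6*, which elongates the product, stood at 10.89, 12.05, 11.20 and 11.19 against 10.03, 9.96, 9.65 and 9.27. Every UN-RG-Veh pup was below every NN-Veh pup for all 3 enzymes, and *Elovl6* differed most, by −1.61 (SE 0.28, adjusted p = 0.131), or −1.22 without the arrays with cilia.

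Other genes of the pathway followed. *Aacs*, which activates acetoacetate for lipid synthesis, fell by 0.70 (SE 0.17), and *Pnpla3*, a lipid droplet protein under the same control by insulin, by 0.86 (SE 0.22), neither with overlap. *Thrsp*, a regulator of lipogenesis, was at −0.85 (SE 0.30), or at −0.61 and no longer past the thresholds when the arrays with cilia were left out. *Mid1ip1*, which activates acetyl-CoA carboxylase, was at −0.93 and did not pass without NN-Veh replicate 2 (−0.60) or UN-RG-Veh replicate 11 (−0.70). *Fads1*, a desaturase, was at −0.63 and did not pass without NN-Veh replicates 1 or 2 or UN-RG-Veh replicates 10 or 11 (−0.41 to −0.66). The 1 gene that rose was *Acacb*, the carboxylase form that restrains fatty acid oxidation, at 0.47 (SE 0.17), with overlap, and it did not pass without NN-Veh replicate 4 or UN-RG-Veh replicate 12 (0.36 in each case), nor without the arrays with cilia (0.37).

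Few genes for storing fat passed. Of 20 genes of triglyceride synthesis and fatty acid uptake 1 fell and 1 rose (median 0.04, and 0 rose without NN-Veh replicates 1 or 2 or UN-RG-Veh replicates 10 or 12, or without the arrays with cilia), and of 18 genes of lipolysis and lipid droplets 1 fell, *Pnpla3* (2 without NN-Veh replicate 2 or without the arrays with cilia). *Slc27a4*, a fatty acid transporter, fell by 0.48 (SE 0.16). *Gpat3*, an acyltransferase of the first step of triglyceride synthesis, which was chosen after its values were seen, stood at 12.22, 11.82, 11.85 and 12.24 against 11.40, 11.34, 11.08 and 11.37, lower without overlap by −0.73 (SE 0.16). *Pdk4*, a kinase that turns off pyruvate oxidation in fasting, was at 10.18, 9.10, 10.03 and 9.72 in NN-Veh and at 9.86, 11.25, 10.85 and 12.75 in UN-RG-Veh. The pups overlapped, and the difference of 1.42 (SE 0.43) dropped to 0.90 without UN-RG-Veh replicate 12 and to 0.68 without the arrays with cilia. *Sqle*, squalene epoxidase of cholesterol synthesis, fell by 0.61 (SE 0.18), in a list of 18 of which 2 fell (median −0.08, and 1 fell without NN-Veh replicate 2 or without the arrays with cilia). *Prkaa2*, a catalytic subunit of the energy sensor AMPK, stood at 9.42, 10.03, 9.20 and 9.50 against 8.86, 9.03, 8.61 and 8.79, lower without overlap by −0.71 (SE 0.17). None of 24 subunits of oxidative phosphorylation passed (median −0.10), nor any of 21 genes of adipocyte identity (median −0.13, though 3 fell without NN-Veh replicate 2 or UN-RG-Veh replicate 9), whose mean was 13.12 to 13.46 in NN-Veh and 13.06 to 13.50 in UN-RG-Veh.

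Genes that interferon-γ induces were higher in UN-RG-Veh. Of 18 measured, all lay above 0, 8 rose and 10 did not pass, with a median of 0.42. The count rested on few pups, at 2 without UN-RG-Veh replicate 11, 3 without the arrays with cilia and 11 without UN-RG-Veh replicate 10. The list mean was 9.53 to 9.67 in NN-Veh and 10.02, 9.76, 10.28 and 10.36 in UN-RG-Veh, above NN-Veh in every pup and lowest in replicate 10. *Ubd*, a ubiquitin-like protein that marks proteins for the proteasome, stood at 7.92, 8.14, 9.43 and 8.46 in NN-Veh and at 10.30, 10.61, 10.38 and 10.56 in UN-RG-Veh. The UN-RG-Veh pups were tightly grouped above all NN-Veh pups, by 1.97 (SE 0.60, 3.93-fold, adjusted p = 0.552). *Gbp2*, a guanylate-binding protein, stood at 12.64, 12.48, 12.38 and 12.33 against 12.98, 13.01, 13.32 and 12.64, where NN-Veh replicate 1 and UN-RG-Veh replicate 12 nearly touched, a difference of 0.53 (SE 0.16). These were the 2 of the 8 that passed with each array left out. *Irgm2*, a GTPase that guards against intracellular microbes, was at 0.57 (SE 0.24) and lost the call without NN-Veh replicates 3 (0.49) or 4 (0.55) or UN-RG-Veh replicates 11 (0.48) or 12 (0.48). *Ifng* itself, the gene of interferon-γ, was at 5.90 to 6.21 in NN-Veh and 5.99 to 6.75 in UN-RG-Veh, near the antigenomic controls, of which 47.0% were lower. Its difference of 0.38 (SE 0.16) did not pass without NN-Veh replicates 2 (0.37) or 3 (0.32) or UN-RG-Veh replicates 9 (0.35), 10 (0.29) or 11 (0.35).

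Antigen presentation followed in part. Of 9 MHC class I genes 4 rose (2 without NN-Veh replicate 1), with a median of 0.25. *H2-Q4*, a non-classical class I gene that probes of its close relatives may share, stood at 9.77, 10.37, 9.77 and 9.71 in NN-Veh and at 11.03, 10.88, 11.06 and 11.42 in UN-RG-Veh. All UN-RG-Veh pups were higher, by 1.19 (SE 0.28, adjusted p = 0.364), and *H2-K1*, a classical class I gene, was higher by 0.57 (SE 0.15). Of 13 genes of the immunoproteasome and peptide loading 3 rose (2 to 4 with each array left out, the fewest without NN-Veh replicates 2 or 4 or UN-RG-Veh replicate 11), with a median of 0.15. *Psmb8* and *Psmb9*, catalytic subunits of the immunoproteasome, differed by 0.53 (SE 0.17) and 0.51 (SE 0.16) without overlap. Of 13 class II genes only *H2-DMb1*, which helps load peptides, rose, from 14.22, 14.71, 14.68 and 14.33 to 15.14, 15.19, 15.10 and 15.22, a difference of 0.68 (SE 0.22). Of 23 genes that type I interferon induces, 4 rose, with a median of 0.33, or 0.16 without the arrays with cilia, and 1 to 7 with each array left out, the fewest without UN-RG-Veh replicate 12 and the most without UN-RG-Veh replicate 10. *Zbp1*, a sensor of nucleic acids, was the 1 that rose in each of these fits, at 0.54 (SE 0.16).

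Markers of macrophages rose in part, which stands beside the interferon genes as a measured value. Of 20 pan-macrophage markers 6 rose (3 without NN-Veh replicate 4) and 17 lay above 0, with a median of 0.24. The list mean was 11.44, 11.08, 11.54 and 11.07 in NN-Veh and 11.74, 11.53, 11.69 and 11.62 in UN-RG-Veh, with overlap only between replicate 3 and replicate 10. *Ms4a7*, a membrane protein of monocyte-derived macrophages, was at 10.64 to 11.67 in NN-Veh and 11.77 to 12.69 in UN-RG-Veh, a difference of 1.05 (SE 0.27). *Clec12a*, an inhibitory lectin of myeloid cells, stood at 12.63, 11.37, 12.21 and 11.51 against 13.09, 12.87, 13.07 and 13.56. All UN-RG-Veh pups were higher, by 1.22 (SE 0.38). *Itgad*, an integrin subunit of tissue macrophages, stood at 6.73, 5.64, 6.37 and 6.04 against 7.09, 7.16, 8.15 and 8.68, higher in every pup by 1.58 (SE 0.34). Of 15 Fc receptors and their adaptors 4 rose (3 without NN-Veh replicates 2 or 4 or UN-RG-Veh replicate 9), with a median of 0.27. *Fcgr1* and *Fcgr4*, activating receptors for IgG, differed by 0.82 (SE 0.25) and 0.96 (SE 0.29), and *Pik3ap1*, an adaptor of PI3-kinase, by 1.06 (SE 0.29).

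Some genes of resident macrophages fell. Of 19 measured, 4 fell, 0 rose and 15 did not pass (2 to 7 fell with each array left out, the fewest without NN-Veh replicates 3 or 4 or UN-RG-Veh replicate 12, the most without NN-Veh replicate 2 or UN-RG-Veh replicate 11), with a median of −0.30. The list mean was 12.27 to 12.63 in NN-Veh and 11.99 to 12.34 in UN-RG-Veh, with overlap. Besides *Lyve1*, *Retnla*, a secreted protein of alternatively activated macrophages, fell by 0.78 (SE 0.23), and by 0.48 without UN-RG-Veh replicate 12. *Mgl2*, a lectin of resident macrophages and dendritic cells, stood at 14.21, 14.22, 13.99 and 13.84 against 13.64, 13.22, 13.45 and 12.11, without overlap. Its difference of −0.96 (SE 0.26) shrank to −0.63 without UN-RG-Veh replicate 12. Within the 12 genes of alternative activation 3 rose and 3 fell, with *Chil4*, a chitinase-like protein whose close relative *Chil3* may share its probes, higher by 0.95 (SE 0.33). Of 19 genes of lipid-associated macrophages, which gather around dying adipocytes, 17 lay above 0 with a median of 0.38 (0.22 without the arrays with cilia), but 1 rose (3 without NN-Veh replicate 1), *Ctsl*, a cathepsin, by 0.63 (SE 0.20), which did not pass without the arrays with cilia (0.48). *Mfge8*, a bridge to dying cells, stood at 15.09, 14.66, 15.41 and 15.46 against 16.33, 16.26, 15.65 and 16.20, higher in every UN-RG-Veh pup by 0.95 (SE 0.26). *Hpgds*, a prostaglandin D synthase of macrophages and mast cells, was at 1.22 (SE 0.42), and leaving out the arrays with cilia (0.77) ended its call.

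Genes of natural killer cells were higher. Of 17 natural killer and cytotoxicity genes 7 rose and 16 lay above 0, with a median of 0.36, and 3 (without UN-RG-Veh replicate 9) to 8 rose with each array left out, and 5 without the arrays with cilia. The list mean was 6.01 to 6.31 in NN-Veh and 6.81, 6.36, 6.44 and 6.41 in UN-RG-Veh, with replicate 9 the highest, and 9 of the 17 lay at or below the median antigenomic control. *Il2rb*, the shared receptor chain of interleukin-2 and interleukin-15, stood at 5.40, 5.13, 5.29 and 5.28 in NN-Veh and at 6.67, 5.70, 6.34 and 5.93 in UN-RG-Veh. The pups did not overlap, and the difference was 0.88 (SE 0.23, adjusted p = 0.405). The mean of *Il2rb* lay below the median antigenomic control in both groups. *Klrc1*, an inhibitory receptor of natural killer cells, was at 0.61 (SE 0.18), or at 0.43 and no longer past the thresholds when the arrays with cilia were left out. *Gzma*, a granzyme, stood at 6.98, 7.64, 7.48 and 6.79 against 8.98, 7.56, 7.81 and 7.79, with a difference of 0.81 that did not pass without UN-RG-Veh replicate 9 (0.50). Of 17 T cell markers 2 rose, *Themis* and *Cd247* (median 0.19, and *Themis* alone without most arrays). *Cd247*, the zeta chain of the T cell receptor, which natural killer cells carry too, was at 0.44 and stayed past the thresholds only without NN-Veh replicate 3 or UN-RG-Veh replicate 11 (0.67 in the second case). Of 13 B cell markers and 11 of mast cells, 0 passed. Only 3 of the 13 B cell, 6 of the 11 mast cell and 6 of the 17 T cell markers lay above the median antigenomic control.

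**Figure D3:**
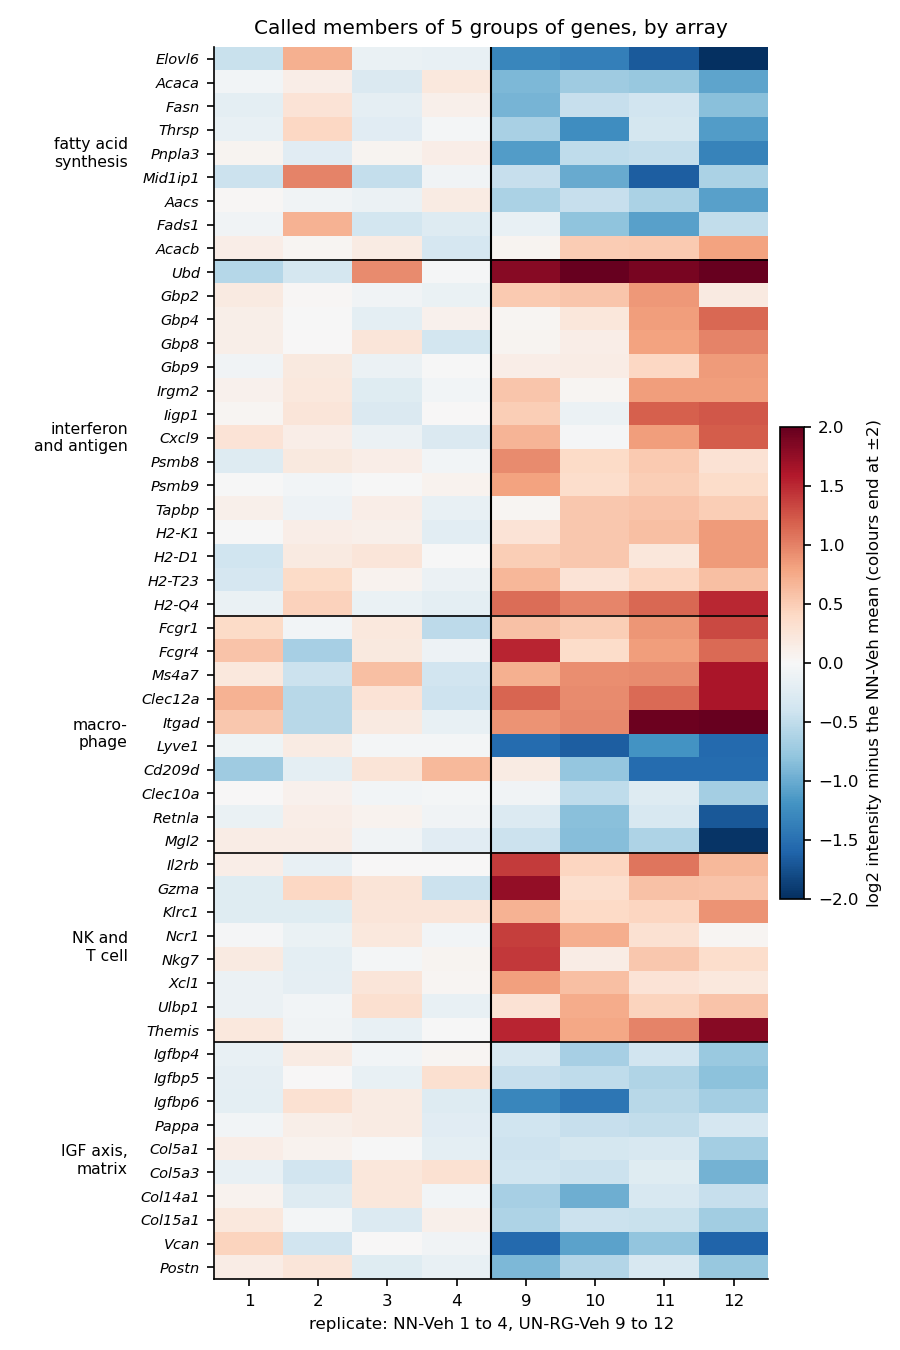
Log2 intensity of 52 genes that rose or fell, by array (columns, NN-Veh replicates 1 to 4 and UN-RG-Veh replicates 9 to 12), as the difference from the NN-Veh mean of each gene, in colours that end at ±2. The interferon genes *Gbp4*, *Gbp8*, *Iigp1* and *Cxcl9* are near the NN-Veh level in UN-RG-Veh replicate 10, the natural killer genes *Gzma*, *Ncr1* and *Nkg7* are highest in replicate 9, and *Lyve1* is low in all 4.

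Acute phase proteins and alarmins were higher for a few genes. Of 19 measured, 4 rose (3 to 5 with each array left out), with a median of 0.17 (0.05 without the arrays with cilia). *Saa3*, serum amyloid A of fat and macrophages, stood at 11.93, 11.31, 13.72 and 12.38 in NN-Veh and at 13.65, 15.17, 15.32 and 14.77 in UN-RG-Veh. NN-Veh replicate 3 reached into the UN-RG-Veh range, and the difference was 2.39 (SE 0.73, 5.25-fold). *S100a8*, a calcium-binding alarmin of neutrophils and monocytes, stood at 7.16, 7.49, 8.75 and 8.87 against 9.73, 10.19, 9.69 and 9.82, without overlap, higher by 1.79 (SE 0.44, adjusted p = 0.391). *Hpx*, hemopexin, which binds heme, stood at 5.55, 5.05, 5.73 and 5.57 against 5.69, 7.13, 7.25 and 8.01. It passed at 1.54 (SE 0.33, adjusted p = 0.295), with replicates 10 to 12 high and replicate 9 at the NN-Veh level, which lay below the median antigenomic control. Of 12 neutrophil markers 2 rose (median 0.11, and 1 rose without UN-RG-Veh replicate 10), and 3 of the 12 lay above the median antigenomic control. Of 23 chemokines 1 rose (median −0.02), 4 without NN-Veh replicate 2 and 0 without NN-Veh replicate 4 or UN-RG-Veh replicates 9 or 12, and 2 without the arrays with cilia. Of 18 complement genes 3 rose and 1 fell (median 0.13), with 1 rise left without UN-RG-Veh replicate 12 or without the arrays with cilia, 5 without NN-Veh replicate 3, and the rise of *Cfb*, factor B of the alternative pathway, was 0.55 (SE 0.19).

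A few genes of prostaglandin synthesis and reception fell. Of 23 in this pathway 4 fell, 1 rose and 18 did not pass (median −0.13), and 3 to 6 fell with each array left out, the most without NN-Veh replicate 2. *Ptger3*, the receptor through which prostaglandin E2 restrains lipolysis, stood at 14.11, 13.62, 14.05 and 14.06 in NN-Veh and at 13.11, 13.25, 13.19 and 12.85 in UN-RG-Veh. The groups did not overlap, and the difference was −0.86 (SE 0.19, adjusted p = 0.295). *Ptges*, a synthase of prostaglandin E2, stood at 12.08 to 12.21 in NN-Veh and at 12.13, 11.19, 10.76 and 10.17 in UN-RG-Veh, lower by −1.06 (SE 0.34) with replicate 9 inside the NN-Veh range. *Ptgs2*, the inducible cyclooxygenase, fell by 0.73 (SE 0.19) without overlap, but lay low, with 25.0% of the antigenomic controls below it. *Alox15*, a lipoxygenase of resident peritoneal macrophages, was at −0.68 and did not pass without NN-Veh replicates 3 or 4 or UN-RG-Veh replicates 9, 10 or 12 (−0.47 to −0.70).

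Of the genes of insulin-like growth factors (IGF), 3 binding proteins and 1 protease fell. Of 19 genes of the IGF axis 4 fell, 0 rose and 15 did not pass (median −0.12), and 3 to 5 fell with each array left out. *Igfbp6*, which prefers IGF-II, stood at 11.61, 12.11, 11.97 and 11.55 in NN-Veh and at 10.50, 10.37, 11.25 and 11.13 in UN-RG-Veh. Every UN-RG-Veh pup was below every NN-Veh pup, by −1.0 (SE 0.23, adjusted p = 0.36). *Igfbp5* stood at 14.29, 14.48, 14.31 and 14.78 against 14.01, 13.96, 13.87 and 13.64, lower without overlap by −0.59 (SE 0.14, adjusted p = 0.36). *Igfbp4* was at −0.53 (SE 0.17), and leaving out the arrays with cilia (−0.41) ended its call. *Pappa*, the protease that cuts IGF binding proteins, was at −0.42 (SE 0.16), or at −0.37 and no longer past the thresholds without NN-Veh replicate 3.

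Matrix and stroma were lower in part. Of 25 genes of collagens and their processing 4 fell and 22 lay below 0 (median −0.21, and 2 fell without UN-RG-Veh replicate 12). *Col15a1*, a basement membrane collagen around adipocytes and vessels, stood at 12.59, 12.35, 12.11 and 12.48 against 11.76, 11.95, 11.93 and 11.68. It was lower in every UN-RG-Veh pup, by −0.55 (SE 0.13, adjusted p = 0.389). Of 18 markers of stromal progenitors 4 fell (median −0.26), but 0 fell without NN-Veh replicate 3 or UN-RG-Veh replicate 12. Of 25 genes of the matrix and its remodelling 4 fell and 3 rose (median −0.08, and 2 fell without NN-Veh replicate 3 or UN-RG-Veh replicate 12, or without the arrays with cilia). *Timp4*, an inhibitor of metalloproteinases made by fat cells, fell by 0.99 (SE 0.29), though UN-RG-Veh replicate 9 at 14.60 lay among the NN-Veh pups (14.53 to 14.88). *Mmp3*, the metalloproteinase stromelysin-1, went the other way, from 6.47, 6.46, 6.52 and 6.54 to 6.84, 8.39, 7.85 and 7.68, a rise of 1.19 (SE 0.26, adjusted p = 0.345) with NN-Veh pups almost equal. *Acta2*, smooth muscle actin, fell by 0.69 (SE 0.18), and by 0.38 without the arrays with cilia. Beside these, 3 of the 19 mesothelial markers fell (median −0.60), 5 without UN-RG-Veh replicate 11, 0 without NN-Veh replicate 4 or UN-RG-Veh replicate 9 and 0 without the arrays with cilia. Of the testis list 4 fell (median −0.61), 7 without NN-Veh replicate 1 and 0 without NN-Veh replicate 3. Its 1 rise, *Sycp3*, a protein of meiotic chromosomes, was from 11.62, 11.39, 11.83 and 12.16 to 13.34, 13.21, 11.91 and 13.86, a difference of 1.33 (SE 0.36).

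Secreted products of fat cells moved both ways. Of 15 adipokines 3 fell and 2 rose (median 0.04), and 1 rose without NN-Veh replicates 1, 2 or 4 or UN-RG-Veh replicates 10 or 12, or without the arrays with cilia. *Agt*, angiotensinogen, stood at 13.65, 14.38, 13.52 and 13.48 in NN-Veh and at 13.23, 11.96, 12.31 and 12.89 in UN-RG-Veh. The groups did not overlap, and the difference was −1.16 (SE 0.32, adjusted p = 0.452). *Retn*, resistin, fell by 0.56 (SE 0.17), with UN-RG-Veh replicate 9 inside the NN-Veh range, and *Lep*, leptin, differed by 0.06 (SE 0.106). *Ccn5*, a matricellular protein of fat precursors, rose by 0.86 (SE 0.25) and by 0.49 without the arrays with cilia. Of 23 genes of insulin signaling 1 fell, *Grb10*, an adaptor that dampens the insulin receptor and is imprinted, at −0.41, which did not pass without NN-Veh replicates 3 (−0.36) or 4 (−0.36) or UN-RG-Veh replicate 10 (−0.38). Of 28 genes of the unfolded protein response, the stress response that chemical chaperones act on, 1 passed (median −0.05, and 2 fell without NN-Veh replicate 1). It was *Kdelr3*, a receptor that returns proteins to the endoplasmic reticulum, at 8.43, 8.64, 8.40 and 8.40 against 8.01, 7.60, 7.40 and 7.86, lower without overlap by −0.75 (SE 0.23).

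Among enzymes that handle foreign and oxidized compounds the changes were single. *Gsta3*, a glutathione S-transferase whose relatives may share its probes, stood at 13.53, 12.92, 12.99 and 13.56 in NN-Veh and at 12.44, 11.52, 12.18 and 11.69 in UN-RG-Veh. It was lower in every UN-RG-Veh pup by −1.29 (SE 0.34, adjusted p = 0.416). *Gsto1*, another glutathione transferase, rose by 0.86 (SE 0.27), in a list of 21 of which 1 rose and 2 fell (median −0.12, and 1 fell without NN-Veh replicate 2 or UN-RG-Veh replicates 10 or 11, 4 without UN-RG-Veh replicate 9). *Tfrc*, the transferrin receptor that takes up iron, stood at 10.95, 11.33, 10.76 and 10.97 against 10.33, 10.29, 10.30 and 10.08. The UN-RG-Veh pups were nearly equal and all lower, by −0.76 (SE 0.15, adjusted p = 0.176). Of 18 genes of iron handling 3 rose and 1 fell (median 0.02), with 1 rise left without NN-Veh replicate 1. *Fgf18*, a fibroblast growth factor, fell by 0.72 (SE 0.19) and *Met*, the receptor of hepatocyte growth factor, by 0.79 (SE 0.24).

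Of the 73 lists 13 held no gene past the thresholds. Besides oxidative phosphorylation, adipocyte identity, B cells and mast cells these were 25 genes of the cell cycle (median −0.15), 20 immediate early genes (−0.04), 19 of the antioxidant response (0.07), 18 ribosomal proteins (0.02), 21 of motile cilia (−0.25), 19 of the epididymal epithelium (0.03), 4 of red blood cells (0.18), 10 of pancreas and lymph node (0.09) and 11 of Schwann cells and nerve (−0.03). For *Mki67*, a marker of dividing cells, the pups overlapped, at 11.30 to 12.18 in NN-Veh and 10.94 to 11.92 in UN-RG-Veh. With 1 array left out, 0 to 2 genes of each of these 9 passed in either direction. A count of 0 at these thresholds does not show that a list did not differ.

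**Figure D4:**
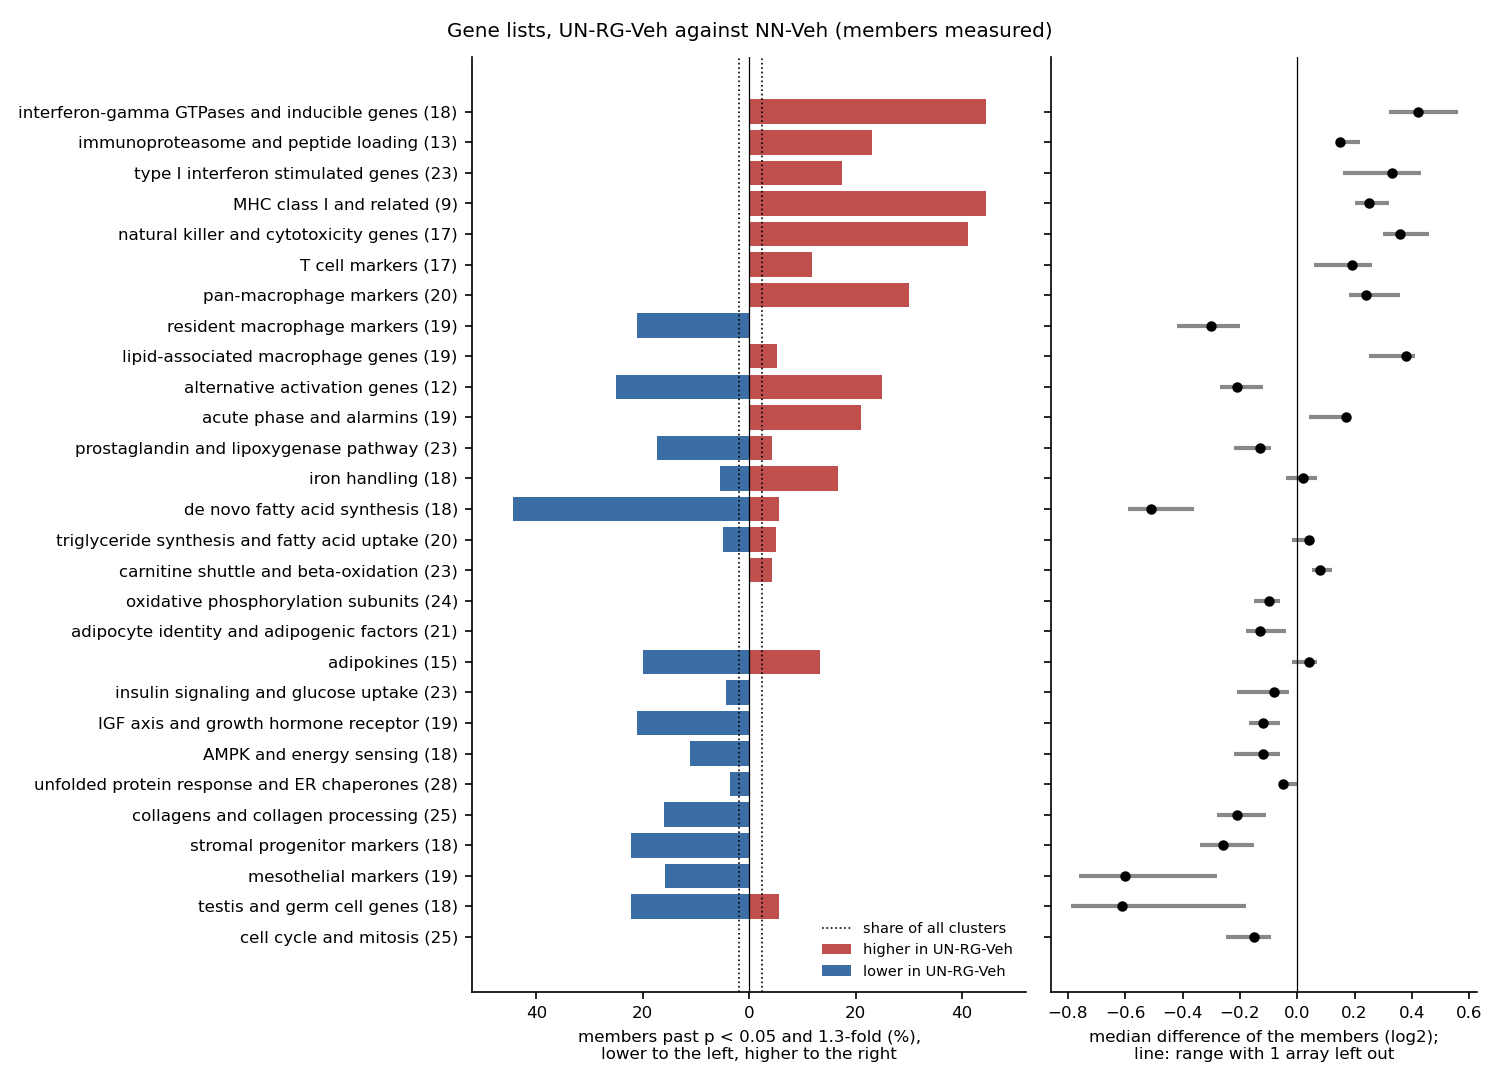
Left, the share of each list's measured members (number in brackets) that rose (red, to the right) or fell (blue, to the left) in UN-RG-Veh, with dotted lines at the shares of all clusters, 2.46% and 1.99%; right, the median log2 difference of the members as a dot, with a line for its range when 1 array is left out. Interferon-γ inducible genes (8 of 18) and fatty acid synthesis (8 of 18) have among the longest bars, in opposite directions, and among the lists drawn the lines of mesothelium and testis are the longest (the list of motile cilia, not drawn, ran from −0.50 to 0.40).

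Above the median antigenomic control, the median SD within a group was 0.198 in NN-Veh and 0.219 in UN-RG-Veh, and 6667 of 12303 clusters (54.2%) had the larger SD in UN-RG-Veh. The median SE of a difference was 0.173. Precision was limited by the number of arrays. Levels of different genes were not compared with each other, since probe sets differ in brightness.

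The same difference between the nutrition groups was then taken in the 8 arrays of pups given TU, which share no array with the vehicle pups. There the same thresholds were passed by 407 clusters (1.83%), 257 of them with the higher level in UN-RG-TU (1.16%) and 150 with the lower (0.675%). The groups did not overlap for 1.89%, 679 had an unadjusted p under 0.05 (3.06%), and 0 passed after adjustment in limma. Without UN-RG-TU replicate 14, one of the arrays with cilia, 711 were higher and 265 lower, without replicate 16 395 and 233, and without NN-TU replicate 6 402 were higher. Without all arrays with cilia 601 were higher and 307 lower. Of the 547 clusters that rose under vehicle, 378 (69.1%) had the same sign under TU, where 52.6% of all clusters lay above 0. Their median difference was 0.506 under vehicle and 0.092 under TU, 17 were called again and 1 in the opposite direction. Of the 441 that fell, 290 (65.8%) kept the sign, with medians of −0.528 and −0.07, 11 were called again and 5 in the opposite direction. The vehicle values chose these clusters, so that their own medians are larger by choice.

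*Casp1* differed by 0.13 (SE 0.14) between the nutrition groups under TU and *Lyve1* by 0.11 (SE 0.18), against 1.10 and −1.49 under vehicle. The difference of the differences was −0.97 (SE 0.20, adjusted p = 0.987) for *Casp1* and 1.60 (SE 0.26, adjusted p = 0.261) for *Lyve1*. *Elovl6* was at −0.09 (SE 0.28), *Cyp2e1* at −0.35 (SE 0.64), *Ubd* at 0.04 (SE 0.60) and *Gpr50* at 0.44 (SE 1.16) under TU, against −1.61, −2.60, 1.97 and 3.97 under vehicle. The medians under TU were −0.24 for interferon-γ inducible genes, −0.06 for the fatty acid synthesis list and 0.07 for the list of resident macrophages, against 0.42, −0.51 and −0.30. *Ptgs2*, at −0.73 under vehicle, was at 0.65 under TU and passed in both, and *Acta2* was at −0.69 and 0.42. *Serpina3f* (0.82 and 0.50) and *Ccn5* (0.86 and 0.59) rose in both. Over all clusters the difference of the differences passed an adjusted p of 0.05 for 0, and an unadjusted p of 0.05 for 701 (3.16%), by limma. Of 181 named genes past the thresholds under vehicle it passed the unadjusted p for 84 and the adjusted p for 0, with 0.261 as the smallest. The vehicle difference, which chose these genes, is part of this difference of differences, so that the count of 84 is high partly by choice. Without NN-TU replicate 7, 1 cluster passed the adjusted p. At the study's thresholds it was above 0 for 302 clusters (1.36%) and below 0 for 365 (1.64%), or for 194 and 446 with centred arrays, and 463 were above 0 without UN-RG-Veh replicate 9. A nutrition difference that was smaller under TU is therefore not shown for any single named gene after adjustment with all arrays.

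**Figure D5:**
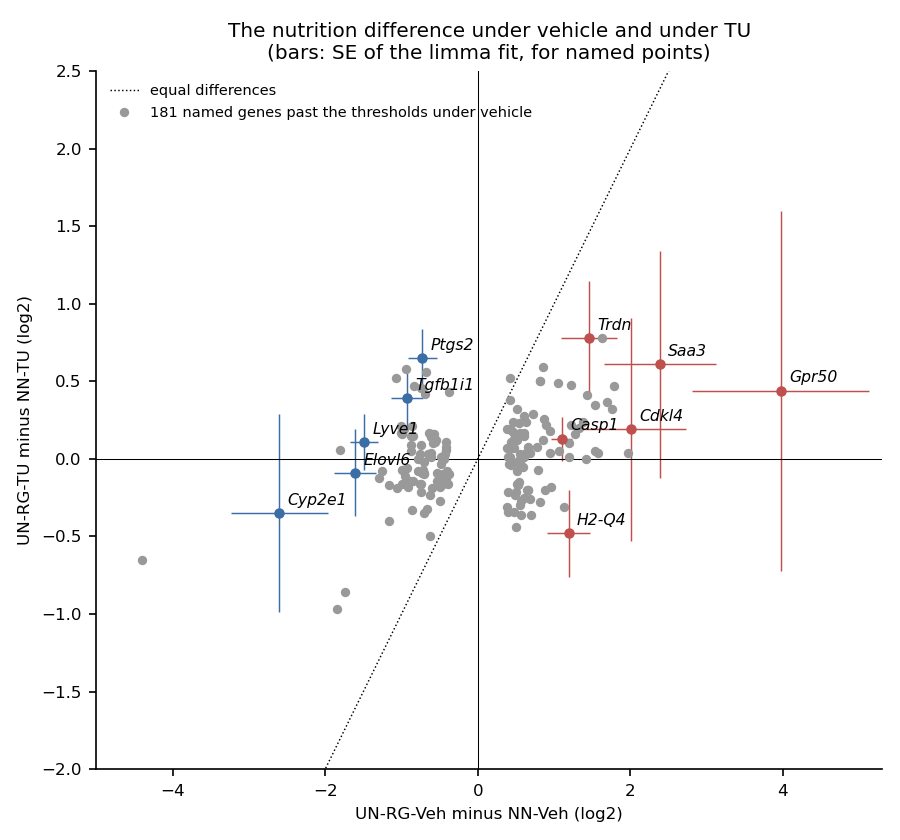
The log2 difference between the nutrition groups under vehicle (x axis) and under TU (y axis) for 181 named genes that passed the thresholds under vehicle, with SE bars for labelled genes and a dotted line where both would be equal. Most points lie between the dotted line and 0 on the y axis or across it, with *Casp1* at 0.13, *Lyve1* at 0.11 and *Gpr50* at 0.44 under TU.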

How the data were processed

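RNA of epididymal adipose tissue from 16 pups, 4 per group, was hybridized by the authors to Clariom S mouse arrays after labelling with the WT PLUS kit, and scans were processed with Expression Console and Transcriptome Analysis Console (versions and normalization not given in the sources used here). The deposited intensities are normalized values on a linear scale, 1 per transcript cluster and array. Their log2 was taken. Of 22520 lines, 314 control probe sets were left out. Of the 22206 clusters, 19572 carried 1 gene symbol in the platform annotation.

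The 4 group means were fitted to all 16 arrays with limma 3.58.1 (12 residual degrees of freedom) in R 4.3.3, with moderated variances and Benjamini-Hochberg adjustment over all clusters. SE and adjusted p come from this fit unless another is named. The study's thresholds, a 1.3-fold change with an unadjusted p below 0.05, were applied beside the adjusted p. No filter was used. Steps were tested on simulated data. The labels give no batch.

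The comparison, the 73 gene lists and the named genes were chosen with earlier results of these data known. Named were clusters past the adjusted p, the 15 largest rises and falls without overlap and above the antigenomic median, up to 4 members of each list with the smallest p, the study's own genes, and the 1 or 2 brightest members of lists without a call. Exceptions are marked in the text. Alternatives were centring on array medians, quantile normalization, a filter that kept 12665 clusters, the 8 arrays alone, a variance trend with a robust prior, the methods' t-test, array weights, each array left out, and the arrays with motile cilia left out (mean of cilia genes over 1 above the median array). Promoters came from RefSeq on GRCm38.p6. The plots used Python 3.11.15 and matplotlib 3.10.9.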

Additional observations from a re-analysis of the deposited data

Results flagged for a closer look

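In 21 of 414 groups of 4 arrays tested for the named genes, 1 pup stood apart from the other 3 by more than Dixon's critical value at the 95% level. Chance flags about 1 in 20 groups, so that the number is near what chance gives. NN-Veh replicate 2 stood apart for the cilia genes *Cfap43* (12.48) and *Rsph4a* (12.54), and for *H2-Q4* (10.37), *Kdelr3* (8.64), *Plagl1* (7.64) and *Ptger3* (13.62). UN-RG-Veh replicate 12 did so for *Rsph4a* (10.33), *Grb10* (10.68), *Hpgds* (12.69), *Mx2* (7.98), *Rsad2* (8.85) and *Tfrc* (10.08). Among the other NN-Veh pups these were replicate 1 for *Cd36* (17.96) and *Fabp4* (18.96), replicate 3 for *Abi3bp* (12.13) and *Zbp1* (6.38), and replicate 4 for *Epor* (6.93) and *Wnt11* (6.14). In UN-RG-Veh replicate 11 stood apart for *Bnc2* (9.67) and *Cd247* (7.59), and replicate 9 for *Tapbp* (13.88). All are log2 intensities. The test of the nutrition difference between vehicle and TU passed the adjusted p for 0 of the named genes by limma, and the unadjusted p for 84 of the 181 past the thresholds under vehicle. These 181 were chosen by the vehicle difference, which is part of that test, so that the count of 84 is high partly by choice.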

How the results depend on the processing

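Of the 181 named genes past the thresholds, 77 passed in every alternative and 90 with each array left out. Of their 2875 values, 2403 kept the call, 472 lost it and 0 changed direction. Calls were lost by 2 genes with the filter, 5 with the trend, 11 in the 8 arrays alone, 12 with centring, 13 with weights, 17 with quantile normalization, 53 by the methods' t-test, 59 without the arrays with cilia and 24 to 55 with 1 array left out. The number of clusters past the adjusted p, 2, became 1 in the 8 arrays alone, 4 with the trend and robust prior, 9 with weights, 0 by the t-test, 0 without the arrays with cilia, and 2 to 9 with 1 array left out. The 547 higher clusters became 292 with the filter, which tests fewer clusters, and 365 to 714 with 1 array left out, and the 441 lower 283 by the t-test, 681 with weights and 375 to 760. Under TU the counts without the arrays with cilia were 601 higher and 307 lower, and with 1 array left out 225 to 711 and 172 to 265. For the difference of the differences 0 to 1 passed the adjusted p and 250 to 463 were higher with 1 array left out, and 194 were higher with centring. The adjusted p of *Casp1* was 0.0814 in the 8 arrays, 0.45 by the t-test and 0.185 without the arrays with cilia, with 0.0175 to 0.0455 when 1 array was left out, and that of *Lyve1* 0.274 and 0.185 in the last 2 settings, with 0.0132 to 0.0455. The cause was not tested. No paired analysis was possible because the labels give no pairing of pups between the groups and their litters were not known.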

Other observations

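Some genes outside the groups described above also differed between the vehicle groups at the study's thresholds. *Wnt11*, a Wnt ligand, was at −0.45 and *Axin2*, a target of Wnt signaling, at −0.70, in a list of 22 of which 2 fell (median −0.17). *Wnt11* did not pass without NN-Veh replicate 4 (−0.33) or UN-RG-Veh replicate 12 (−0.34), and *Axin2* without NN-Veh replicate 2 (−0.48) or UN-RG-Veh replicates 10 or 11 (−0.58 in each case). Of 17 imprinted growth genes 3 fell, *Plagl1* at −0.97, *Ndn* at −0.59 and *Grb10* at −0.41, and the count was 0 without NN-Veh replicate 4 or UN-RG-Veh replicate 10. *Plagl1* and *Ndn* also lost the call without NN-Veh replicate 1 (−0.85 and −0.50) or UN-RG-Veh replicate 12 (−0.88 and −0.37), *Plagl1* without NN-Veh replicate 3 (−0.87) and *Grb10* without NN-Veh replicate 3 (−0.36). Of 18 enzymes of DNA methylation and chromatin 1 rose, *Tet3*, an oxidase of methylated cytosine, at 0.42, and 0 did so without NN-Veh replicate 2 (0.31 for *Tet3*), 2 without NN-Veh replicate 3. Of 18 clock genes 1 fell, *Arntl*, a core activator of the clock, at 10.83, 10.63, 10.69 and 10.49 in NN-Veh against 10.31, 10.08, 10.38 and 9.23 in UN-RG-Veh. Its difference of −0.66 was −0.40 without UN-RG-Veh replicate 12 and did not pass, nor did it without NN-Veh replicates 1, 2 or 3. *Cyp2u1*, a cytochrome P450 of fatty acids, rose by 0.51 (SE 0.17) and *Rgs7bp*, a partner of G protein regulators, fell by 0.87 (SE 0.23).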
